A study of Mus musculus with 6 samples.

Results

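The genes described here are those of the aryl hydrocarbon receptor: Ahr, the receptor itself; Arnt, the partner it needs to bind DNA; Ahrr, a repressor that competes with it; and its target genes Cyp1a1, Cyp1b1 and Tiparp. They were chosen by name, 6 genes of the 19938 that the arrays measured on transcript clusters with a single gene. Where a gene has several such clusters, that with the highest mean over all 6 arrays was to stand for it; each of these genes had exactly 1, so no choice was made. The set was put together with results of these data in view, in which Cyp1a1 was already known to be lower after ETX, so its difference is given as a description and is not independent evidence. The hearts came from C57BL/6J mice at postnatal day 14 that had been given ETX or the vehicle, phosphate-buffered saline (PBS), during 1 week. ETX is not spelled out in the labels, and its dose and route are not stated in the labels. Each group held 3 hearts that the labels call biological replicates (PBS replicates 3, 9 and 12, ETX replicates 6, 7 and 10), with 1 Affymetrix whole-transcript array per heart. All values are the log2 signals the authors deposited, given as mean ± SD (n = 3 per group), and differences are ETX minus PBS on that log2 scale.

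The aryl hydrocarbon receptor is a transcription factor of the basic helix-loop-helix PAS family. It waits in the cytosol in a complex with the chaperone HSP90, binds planar aromatic ligands (dioxin, combustion products, and products of tryptophan breakdown), enters the nucleus and binds together with ARNT to short DNA elements, called xenobiotic response elements, near its targets. The cytochrome P450 Cyp1a1, which oxidises such ligands, is its most used reporter gene and is readily induced in endothelium, lung and liver. Ahrr and Tiparp are targets that feed back on the receptor.

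The core of the xenobiotic response element is GCGTG, and the promoters of the target genes are shown because this element is what they are known to share. The stretches are the 250 bases before each gene's start in RefSeq (build GRCm38.p6), written 5′ to 3′ on the gene's strand, with each GCGTG or its reverse complement CACGC in capitals. RefSeq promoters were matched by symbol for 5 of the 6 genes, all but Ahr. Cyp1a1 is at chr9:57697363-57697612 (plus strand), Cyp1b1 at chr17:79715062-79715311 (minus strand), Tiparp at chr3:65528197-65528446 (plus strand) and Ahrr at chr13:74292332-74292581 (minus strand).
Cyp1a1: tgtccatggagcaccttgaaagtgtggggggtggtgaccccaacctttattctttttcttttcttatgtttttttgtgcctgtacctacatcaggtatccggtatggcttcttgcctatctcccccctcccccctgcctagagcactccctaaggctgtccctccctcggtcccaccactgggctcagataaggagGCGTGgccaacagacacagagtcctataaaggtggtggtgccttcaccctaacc
Cyp1b1: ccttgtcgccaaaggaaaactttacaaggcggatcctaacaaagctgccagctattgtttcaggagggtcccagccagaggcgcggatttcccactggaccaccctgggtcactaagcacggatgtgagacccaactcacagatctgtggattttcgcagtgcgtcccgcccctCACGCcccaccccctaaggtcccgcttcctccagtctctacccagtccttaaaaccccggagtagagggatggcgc
Tiparp: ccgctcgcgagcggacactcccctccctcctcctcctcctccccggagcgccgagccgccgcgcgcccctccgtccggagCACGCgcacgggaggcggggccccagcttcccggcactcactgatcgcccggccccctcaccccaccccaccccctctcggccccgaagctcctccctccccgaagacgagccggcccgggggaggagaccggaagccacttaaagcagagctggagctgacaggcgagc
Ahrr: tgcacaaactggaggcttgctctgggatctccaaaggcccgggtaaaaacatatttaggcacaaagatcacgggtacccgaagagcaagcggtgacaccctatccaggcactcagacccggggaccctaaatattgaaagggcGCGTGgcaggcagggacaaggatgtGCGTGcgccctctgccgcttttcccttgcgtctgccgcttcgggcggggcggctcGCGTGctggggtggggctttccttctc

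Searched on both strands, the core was in 28.2% of 32851 RefSeq windows of this length. Cyp1a1 held 1, beginning 54 bases before the start, upstream of a TATAAA beginning 30 bases before it, a sequence that 12.4% of windows held. Cyp1b1 held 1 (beginning 76 bases before the start) and Tiparp 1 (170 bases before), both on the opposite strand. Ahrr held 3, and 1 of these lay within the longer form TNGCGTG, which contains the core and was present in 4.1% of windows. The window of Arnt held 1 core. The E-box CACGTG was in 6.02% of windows and in none of these 5. The windows differed in composition: Cyp1a1 held 3 CpG dinucleotides, against 12 in Cyp1b1, 17 in Ahrr, 28 in Tiparp and a median of 6 over all windows. The window of Cyp1a1 did not hold the longer form. Sequence further than 250 bases before a start was not searched, so response elements lying there are not covered. Such matches describe letters and are not evidence of binding. The marked cores are not shown to be the elements through which the receptor acts.

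All 6 arrays carried the heart's own transcripts, with a mean of 11.9 to 12.03 over 10 cardiomyocyte markers, and array medians lay between 4.43 and 4.51. Hearts differed in transcripts of neighbouring tissue. The mean of 12 lung markers was 5.56 in PBS replicate 3 and 6.84 in PBS replicate 9, against 3.49 in PBS replicate 12 and 3.58 to 3.63 in ETX. The mean of 9 liver markers was 4.32, 4.24 and 5.56 in PBS replicates 3, 9 and 12 and 6.09, 5.49 and 4.61 in ETX replicates 6, 7 and 10. That of 8 atrial markers was 7.85 in PBS replicate 3 and 7.30 and 7.41 in ETX replicates 6 and 7, while the other hearts had 5.69 to 6.19. Xist, expressed by females, was high in PBS replicate 3 (8.41) and ETX replicates 6 (8.34) and 10 (8.38) and low in the other hearts (2.61 to 2.87). As lists, the 10 tested lung markers were all below 0 (median -1.57, none called), the 9 liver markers all above 0 (median 0.57, none called), 6 of 8 atrial markers above 0 (median 0.59, none called), and 9 of 10 cardiomyocyte markers below 0 (median -0.085, none called). The 3 erythroid markers measured were above 0 (median 0.58, 2 called higher in limma, beside 1.14% of all genes tested). Of all 14953 genes tested 7719 were below 0.

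The receptor and its partner were measured at almost the same level in every heart, while Cyp1a1 was lower in each ETX heart than in any PBS heart. In limma, at an adjusted p under 0.05, Cyp1a1 was called lower, and Ahr, Arnt, Cyp1b1 and Tiparp were not called. Nothing is read from that count, because Cyp1a1 was known to be lower when it was chosen and passed the filter on dim genes (a mean over all hearts of at least 3.45) through its PBS hearts alone: its mean was 4.65 in PBS and 3.37 in ETX. Ahrr did not pass the filter. Over all 14953 genes tested 2.43% were called lower (363 genes) and 1.14% higher (170), 3.56% together; with arrays centred on their median these were 459 lower and 125 higher, and with a further quantile normalization 312 lower and 223 higher.

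**Figure D1:**
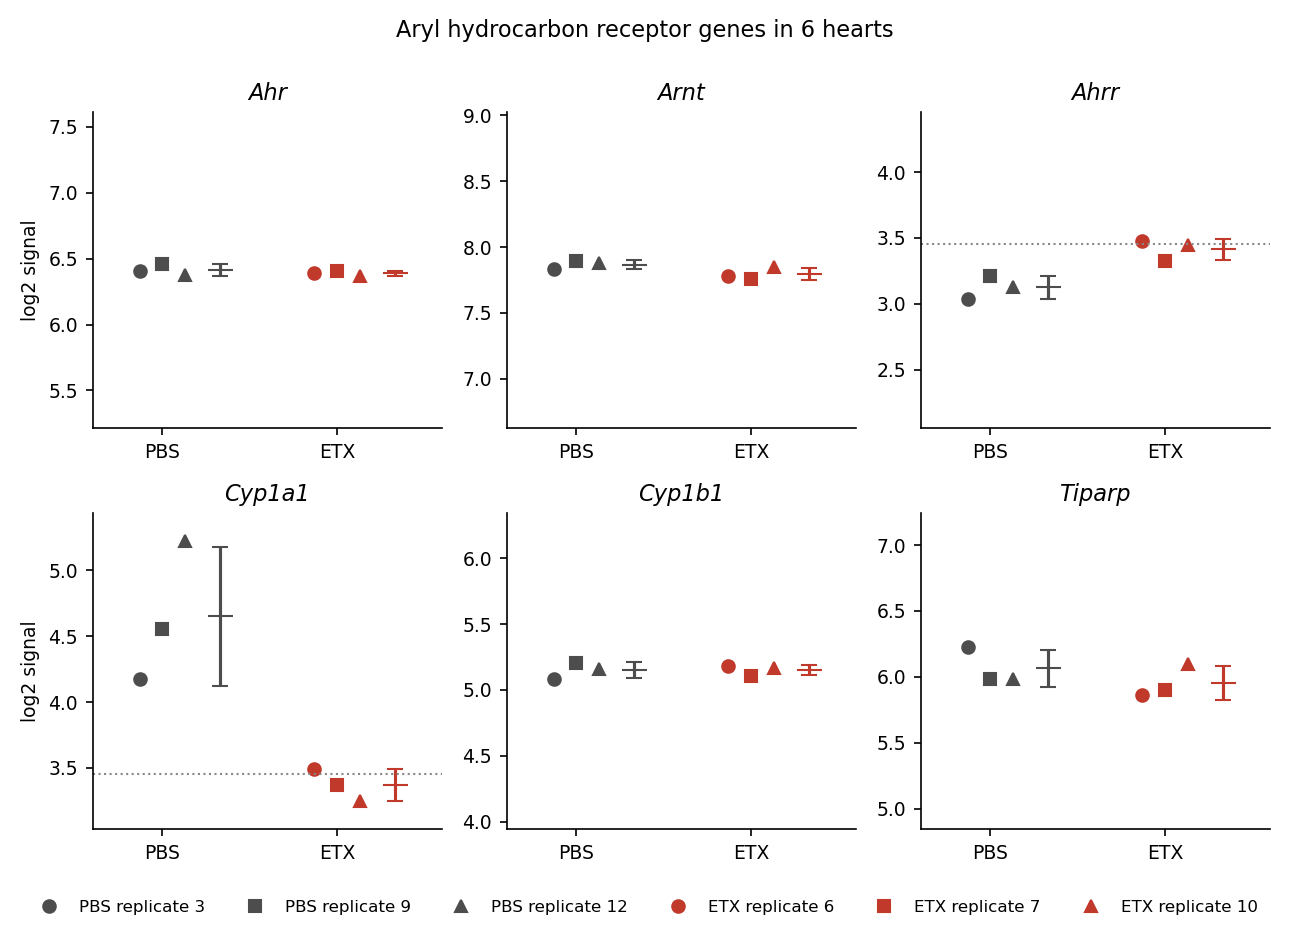
Log2 signal of the 6 genes in the 3 PBS hearts (grey) and the 3 ETX hearts (red), 1 point per heart, with the group mean and SD beside the points; every panel spans the same 2.4 log2 units, and the dotted line at 3.45 is the level below which a gene's mean counted as dim. The ETX points of Cyp1a1 lie at that line, below its PBS points of 4.18 to 5.22, while those of Ahr, Arnt, Cyp1b1 and Tiparp overlap with PBS.

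Ahr itself was at 6.41, 6.46 and 6.37 in PBS replicates 3, 9 and 12 and at 6.39, 6.41 and 6.37 in ETX replicates 6, 7 and 10. The groups overlapped, and no heart stood apart. The difference was -0.025 (95% interval -0.17 to 0.12, limma adjusted p = 0.857), so a change of the receptor's transcript by more than 0.17 in either direction lay outside the interval. Its spread was among the smallest measured: 97.5% of the tested genes had a larger within-group SD than its 0.033.

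Arnt, which also pairs with the hypoxia factors, was at 7.83, 7.89 and 7.88 in PBS and at 7.78, 7.76 and 7.85 in ETX. ETX replicate 10 lay inside the PBS range and the other ETX hearts just below it. The difference was -0.072 (95% interval -0.22 to 0.073, limma adjusted p = 0.553).

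Ahrr, the repressor that is itself induced by the receptor, was at 3.04, 3.21 and 3.13 in PBS replicates 3, 9 and 12 and at 3.48, 3.33 and 3.44 in ETX replicates 6, 7 and 10. All ETX hearts lay above all PBS hearts, by a mean of 0.29. With a mean of 3.27 over all hearts it fell under the filter of 3.45, the lower quartile of gene means, and was not tested; Cyp1a1, the dimmest of the tested genes of the set, had a mean of 4.01. Among the 4985 genes under the filter 10.3% were higher in ETX without overlap and 65.5% had a difference above 0, with a median of 0.039; 1.81% had a difference at least as high as that of Ahrr. With no filter Ahrr had a limma adjusted p of 0.0991. At such levels the difference gives no reliable fold.

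Cyp1a1 was at 4.18 in PBS replicate 3, 4.56 in PBS replicate 9 and 5.22 in PBS replicate 12. It was at 3.49, 3.37 and 3.25 in ETX replicates 6, 7 and 10. The PBS hearts were spread over 1.05 log2 units and the ETX hearts over 0.24, and the groups did not overlap, as was the case for 27.7% of all genes tested (16.1% lower in ETX). The means were 4.65 ± 0.53 in PBS and 3.37 ± 0.12 in ETX, a difference of -1.28 (SE 0.23, 95% interval -1.81 to -0.76, limma adjusted p = 0.0314). Only 0.334% of the tested genes differed by more. The ETX mean lies under the filter level, where RMA compresses differences, so no fold is given. In bulk tissue fewer cells that express a gene and less transcript per cell cannot be told apart.

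Whether Cyp1a1 was called depended on which hearts were present, and over the 20 alternative fits its limma adjusted p ran up to 0.723. Its difference was below 0 in all of them, but most could not have changed that. Leaving out hearts cannot turn the sign of groups that do not overlap. Other filters, eBayes options and uses of clusters left the difference at -1.28. Without ETX replicate 6, ETX replicate 7, ETX replicate 10 or PBS replicate 9 the limma adjusted p was 0.0759, 0.106, 0.0832 and 0.0547. It passed without PBS replicate 3 (difference -1.52, adjusted p = 0.0289) and without PBS replicate 12, the highest heart (-0.997, adjusted p = 0.0226). An exact two-sided permutation test over the 6 hearts gave p = 0.1, the smallest p that 3 against 3 can give.

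Cyp1a1 was then read against the transcripts of other tissues in the same hearts. PBS replicate 12, with the lowest lung markers of all hearts, had the highest Cyp1a1. Without PBS replicates 3 and 9, the hearts with lung transcripts, the difference was -1.85. PBS replicate 12 is then the single PBS heart and is assumed to vary like the others. As it had the highest Cyp1a1, a larger difference was fixed in advance, and nothing is read from it. Adding the lung score as a covariate gave -1.67 (limma adjusted p = 0.0405). The liver's serum albumin, Alb, was highest in ETX replicate 6 (9.10), where Cyp1a1 was at 3.49, and next in PBS replicate 12 (8.16), where Cyp1a1 was at 5.22. Within ETX the liver score (6.09, 5.49 and 4.61 in replicates 6, 7 and 10) ran in the same order as Cyp1a1. Within PBS, replicate 12 was highest in both, while replicates 3 and 9 (liver scores 4.32 and 4.24) were in the opposite order. Adding the liver score, a covariate chosen after seeing the data, gave -1.56 (limma adjusted p = 0.023). The part of lung or liver tissue in the Cyp1a1 result was not tested. Among the hearts with high Xist, Cyp1a1 was at 4.18 in the PBS heart and 3.49 and 3.25 in the ETX hearts, and among those with low Xist at 4.56 and 5.22 in PBS and 3.37 in ETX. With sex read from Xist in the fit the difference was -1.16 (adjusted p = 0.0722), and with the atrial-marker score -1.18 (adjusted p = 0.0626).

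Endothelial cells are among those in which Cyp1a1 is inducible. The mean of 12 endothelial markers was 8.78 to 8.82 in PBS and 8.52 to 8.68 in ETX without overlap. Of the 12 markers 10 were below 0, with a median difference of -0.25. In limma 3 were called lower, beside 2.43% of all genes tested. In PBS replicates 3, 9 and 12 the endothelial score (8.78, 8.80 and 8.82) rose in the same order as Cyp1a1. Within the ETX group the order was not that of Cyp1a1: ETX replicate 10 had the highest endothelial score (8.68) and the lowest Cyp1a1 (3.25). With that score in the fit the Cyp1a1 difference was -1.24, with an SE of 0.58 (limma adjusted p = 0.723). The score separates the groups by itself, so endothelial content and ETX cannot be told apart here. The fit with this score called 0 genes in limma, with 1089 at an unadjusted p under 0.05. Macrophage markers were lower as well, with all 12 below 0, a median of -0.49 and 5 called lower, beside 2.43% of all genes tested. Their mean was 6.79 to 7.07 in PBS and 6.35 to 6.45 in ETX. That mean also separates the groups by itself, so macrophage content and ETX cannot be told apart here either. The part of macrophages in the Cyp1a1 result was not tested.

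**Figure D2:**
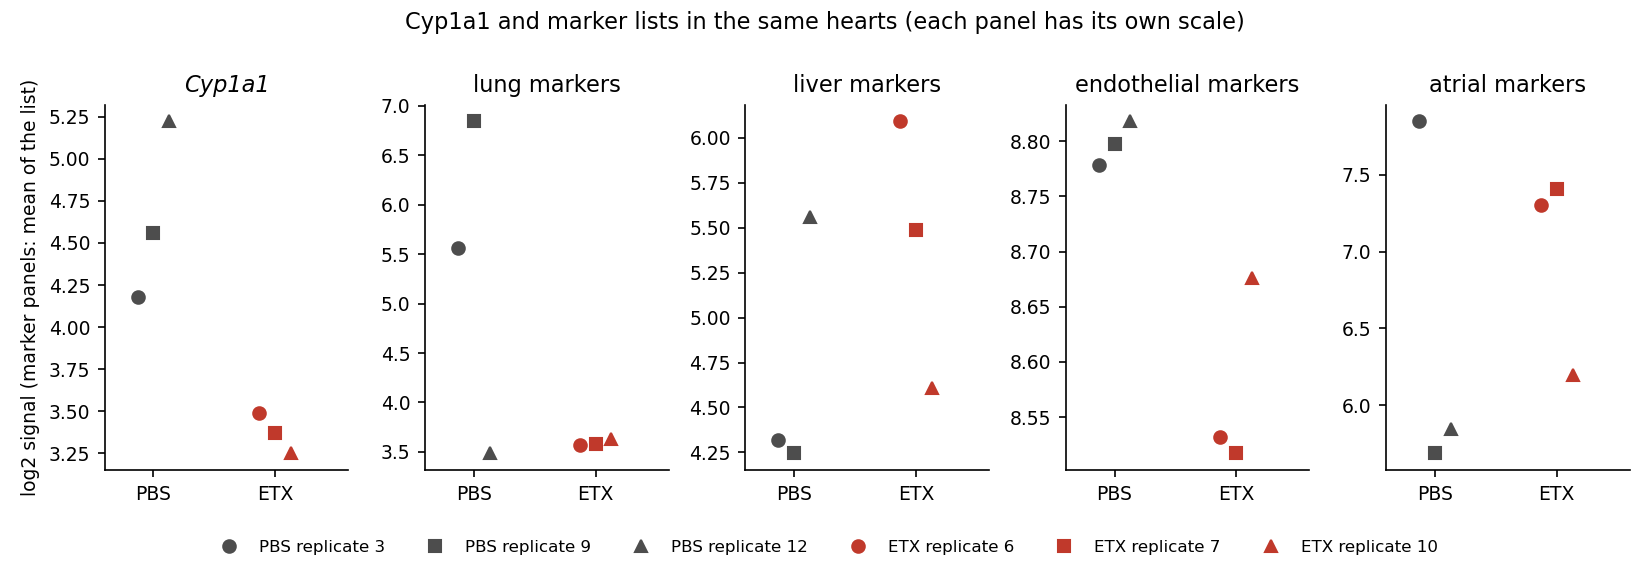
Cyp1a1 (left, log2 signal) and the mean log2 signal of lung, liver, endothelial and atrial marker lists in the same hearts, 1 point per heart, PBS in grey and ETX in red; each panel has its own scale. Cyp1a1 was highest in PBS replicate 12 (5.22), a heart with a lung score of 3.49, and the endothelial scores of 8.78 to 8.82 in PBS lie above all ETX hearts.

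Cyp1b1, the sister enzyme that metabolises steroids and aromatic compounds and is found in fibroblast-like and vascular wall cells, was at 5.08, 5.20 and 5.16 in PBS and at 5.18, 5.10 and 5.17 in ETX. The groups overlapped fully. The difference was 0.0015 (95% interval -0.15 to 0.15, limma adjusted p = 0.991), and 99.3% of the tested genes differed by more. Its interval does not overlap with that of Cyp1a1, but Cyp1a1 was known to be lower when it was chosen, so nothing is read from this. The difference between the 2 changes was not itself tested. Beside 2.43% of all genes tested, 1 of 10 fibroblast markers was called lower (median -0.19, 8 below 0). Of 10 pericyte and smooth muscle markers 1 was called lower (median -0.11, 8 below 0). The part of these cells in the Cyp1b1 values was not tested.

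Tiparp, an ADP-ribosyl transferase that marks the receptor for breakdown, was at 6.23, 5.98 and 5.99 in PBS replicates 3, 9 and 12 and at 5.86, 5.90 and 6.10 in ETX replicates 6, 7 and 10. PBS replicate 3 was the highest heart, and ETX replicate 10 lay above the other PBS hearts. The difference was -0.11 (95% interval -0.33 to 0.11, limma adjusted p = 0.552).

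In the wider battery of detoxifying enzymes under the receptor no gene was called in limma. Of 13 enzymes in the list, 7 were measured on clusters of their own, 5 lay only on clusters with several genes (the Ugt1a and Gsta1 and Gsta2 families) and 1 was not found by its symbol. Of these 7, 5 were below 0, with a median of -0.068 beside -0.0063 for all genes tested. That median turned to 0.068 without ETX replicate 7 and to 0.095 without PBS replicate 9. Of the battery's 2 members with the smallest p, Gsta3, a glutathione transferase, was at 5.74, 6.06 and 5.86 in PBS and 5.81, 5.25 and 5.57 in ETX (difference -0.34, limma adjusted p = 0.217). Aldh3a1, an aldehyde dehydrogenase, was at 3.45 ± 0.21 in PBS and 3.60 ± 0.10 in ETX (adjusted p = 0.486), near the filter level. Nqo1, the quinone reductase that the receptor shares with the oxidative stress factor NRF2, was at 5.89, 6.06 and 6.04 in PBS and 5.92, 6.05 and 5.79 in ETX (difference -0.073, adjusted p = 0.677).

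Cyp1a2, the close relative of Cyp1a1 that is made mainly in liver, was at 3.62, 3.88 and 4.08 in PBS replicates 3, 9 and 12 and at 4.26, 4.30 and 3.60 in ETX replicates 6, 7 and 10. Its 3 highest hearts were the 3 with the highest liver markers (5.49 to 6.09). The difference was 0.19 (limma adjusted p = 0.615), and -0.060 with the liver-marker score in the fit, a covariate chosen after seeing the data. The part of liver tissue in the Cyp1a2 values was not tested.

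Of 13 other described targets, 12 were measured and 10 tested; 9 were below 0, with a median of -0.27 (-0.15 without PBS replicate 9), and 1 fell, where 2.43% of all genes tested were called lower. The gene that fell was Nfe2l2, which encodes NRF2, the activator of antioxidant genes. It was at 8.65, 8.77 and 8.91 in PBS and at 8.31, 8.24 and 8.45 in ETX, 1.36-fold lower without overlap (limma adjusted p = 0.042). It lost the call in each of the 6 fits without 1 heart, with an adjusted p of 0.0655 to 0.147, and in 14 of its 21 alternatives. With the endothelial score in the fit its difference was -0.12 (limma adjusted p = 0.938). Cdkn1b, the cell cycle inhibitor p27, differed by -0.29 (limma adjusted p = 0.12) without overlap and without passing. The same held for the amino acid carrier Slc7a5, which differed by 0.31 (limma adjusted p = 0.133). Groups did not overlap for 3 of the 10 tested targets and for 27.7% of all genes tested (16.1% lower in ETX). Il1b, a cytokine, had the largest difference of the list (-0.92, adjusted p = 0.369) and was high in PBS replicate 9 alone (6.32), which also held the most lung transcripts; the part of lung tissue in it was not tested.

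**Figure D3:**
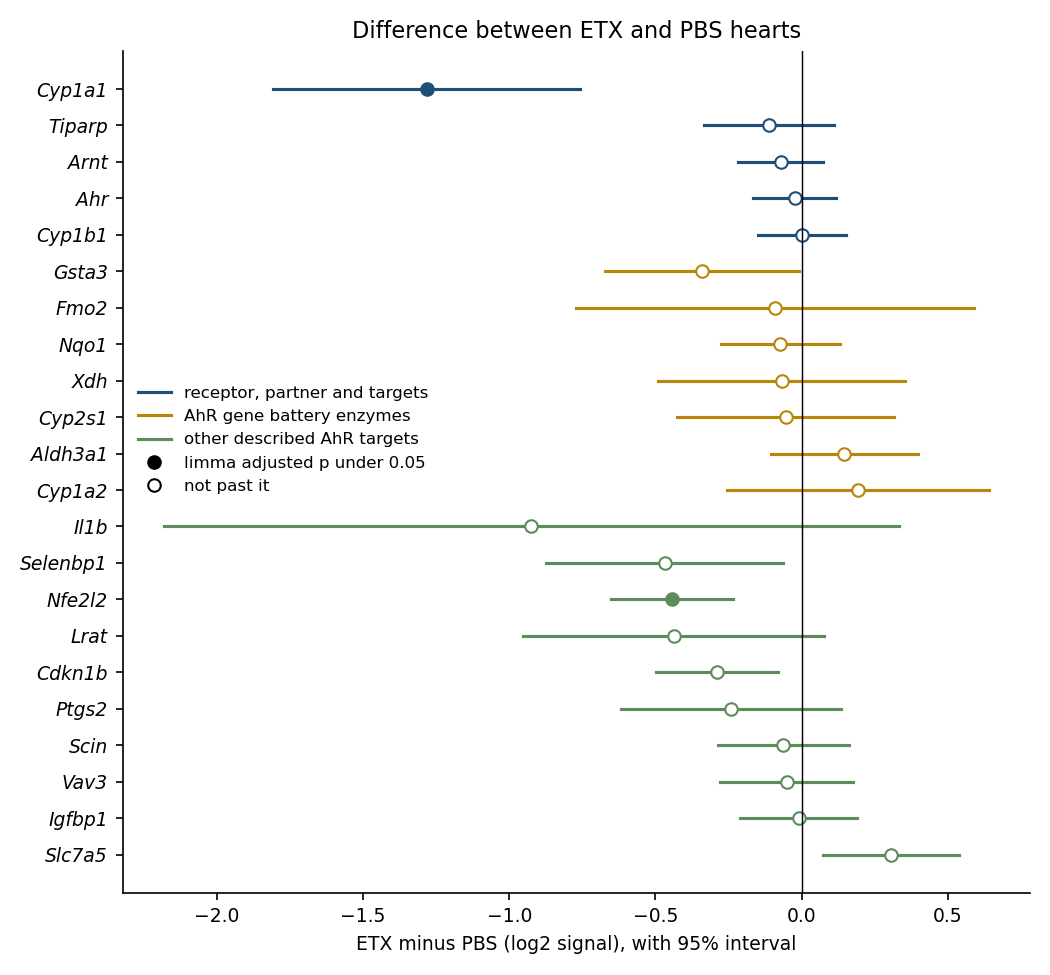
Difference between ETX and PBS hearts (log2 signal) with its 95% interval for the 5 tested genes of the set (blue), the 7 tested battery enzymes (ochre) and the 10 other tested targets (green); filled circles passed a limma adjusted p of 0.05. Cyp1a1 at -1.28 and Nfe2l2 at -0.44 are the filled circles.

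In the cytosol, the receptor's chaperones were lower on average without a call. Of 7 genes, 5 were measured and tested; 4 of these were below 0, with a median of -0.18. Hsp90aa1, the inducible HSP90, was at 9.97, 10.06 and 10.26 in PBS and at 9.70, 9.79 and 9.91 in ETX (difference -0.30, limma adjusted p = 0.122). Xpo1, the exportin that returns the receptor to the cytosol, was at 7.50, 7.43 and 7.77 in PBS and at 7.19, 7.38 and 7.28 in ETX (adjusted p = 0.152). Neither gene overlapped between the groups, nor did 27.7% of all genes tested (16.1% lower in ETX).

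In the nucleus, 2 coregulators fell. Of 13 coregulators 11 were tested; all 11 were below 0, with a median of -0.17, and 2 were called lower. Of all 14953 genes tested 7719 were below 0 and 2.43% were called lower. With further quantile normalization 9 of the 11 were below 0, the median was -0.11 and 1 was called. The acetyltransferase Crebbp was at 8.65, 8.67 and 8.62 in PBS and at 8.21, 8.15 and 8.24 in ETX, 1.36-fold lower (limma adjusted p = 0.0144). Sp1, a factor that binds GC-rich promoters and cooperates with the receptor at Cyp1a1, was at 7.31, 7.22 and 7.18 in PBS and at 6.87, 6.92 and 6.89 in ETX, 1.27-fold lower (adjusted p = 0.0348). In both, the hearts of a group lay close together and the groups did not overlap. Of the 11 tested coregulators 7 were lower without overlap, and of all genes tested 16.1% were. Crebbp lost the call without ETX replicate 7 or PBS replicate 3 (adjusted p = 0.0713 and 0.0576), and Sp1 in each of the 6 fits without 1 heart (0.0631 to 0.112). Further quantile normalization ended the call of Sp1 (0.0529). Over all alternatives the adjusted p ran from 0.0046 to 0.682 for Crebbp and from 0.0171 to 0.678 for Sp1.

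Relatives that share Arnt or resemble it did not pass. Of 13 basic helix-loop-helix PAS genes 12 were measured and 9 tested, with 6 above 0, a median of 0.018 and none called; with arrays centred on their median 3 were above 0 and the median was -0.011, with further quantile normalization 4 and -0.0071, and without PBS replicate 9 the median was -0.016. Clock and Arntl, the core pair of the circadian clock, had the smallest p of the list (differences -0.20 and -0.12, limma adjusted p = 0.251 and 0.519). Hif1a, the hypoxia factor that competes for Arnt, was at 8.44, 8.55 and 8.52 in PBS and at 8.44, 8.55 and 8.67 in ETX (adjusted p = 0.759), and Arnt2 differed by 0.069 (adjusted p = 0.679). Of the ADP-ribosyl transferases related to Tiparp, 12 of 13 were tested, 10 were below 0 with a median of -0.084, and none was called. Parp14 had the smallest p among them: it was at 6.75, 6.79 and 6.68 in PBS but spread from 6.01 to 6.61 in ETX (adjusted p = 0.112), and passed without ETX replicate 10 (0.0332, in a range of 0.0332 to 0.896 over its alternatives). Zc3hav1, an antiviral protein of this family, differed by -0.21 (adjusted p = 0.15).

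Enzymes that make or remove tryptophan-derived ligands went both ways. Of 14 genes 13 were measured and 8 tested; 4 were above 0 and 4 below, with a median of 0.022 (-0.0076 with arrays centred on their median), and 1 rose and 1 fell, where 1.14% of all genes tested were called higher and 2.43% lower. Kyat3, a transaminase that acts on kynurenine, was at 5.51, 5.27 and 5.35 in PBS and at 5.91, 5.69 and 5.80 in ETX, 1.34-fold higher (limma adjusted p = 0.0444). Maob, a monoamine oxidase, was at 6.55, 6.33 and 6.47 in PBS and at 5.84, 5.54 and 5.31 in ETX, 1.85-fold lower (adjusted p = 0.0184). Both were without overlap, as were 6 of the 8 tested genes of the list and 27.7% of all genes tested. Kyat3 lost the call in each of the 6 fits without 1 heart (0.0639 to 0.121), and Maob without ETX replicate 7, PBS replicate 12 or PBS replicate 3 (0.0766, 0.0522 and 0.0639; over all its alternatives 0.0089 to 0.464). Tdo2 and Ido1, which open the tryptophan ring, and Kmo lay under the filter, with means of 2.48, 3.24 and 2.71 in PBS, and were not tested.

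The genes whose pattern over the 6 hearts came closest to Cyp1a1 were Rgs7, a regulator of G protein signalling, C1qtnf9, a secreted relative of adiponectin, the peptidase Mme, the tropomodulin Tmod4 and the matrix protein Hmcn2. Likeness was the root mean square difference of log2 values after each gene was centred on its own mean, and it ran from 0.216 for Rgs7 to 0.312 for Hmcn2, where Cyp1a1 against a flat line gives 0.714. Rgs7 was at 5.29, 5.48 and 5.73 in PBS replicates 3, 9 and 12, the same order as Cyp1a1, and at 4.57, 4.08 and 4.26 in ETX. The differences of all 5 lay between -1.33 and -0.88. None of them is in the lists of described targets used here, which are short. All 5 were lower in ETX, which follows from choosing genes close to Cyp1a1 over these same hearts. For Tiparp the closest gene was Parp8, a further ADP-ribosyl transferase (0.027, where a flat line gives 0.123), at 6.40, 6.16 and 6.17 in PBS and 5.97, 6.08 and 6.24 in ETX. The closest gene was Pou3f1 for Ahr (0.0092, where a flat line gives 0.0298), Ogfr for Arnt (0.0094, flat line 0.0493) and Rnaseh2b for Cyp1b1 (0.0112, flat line 0.0427).

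**Figure D4:**
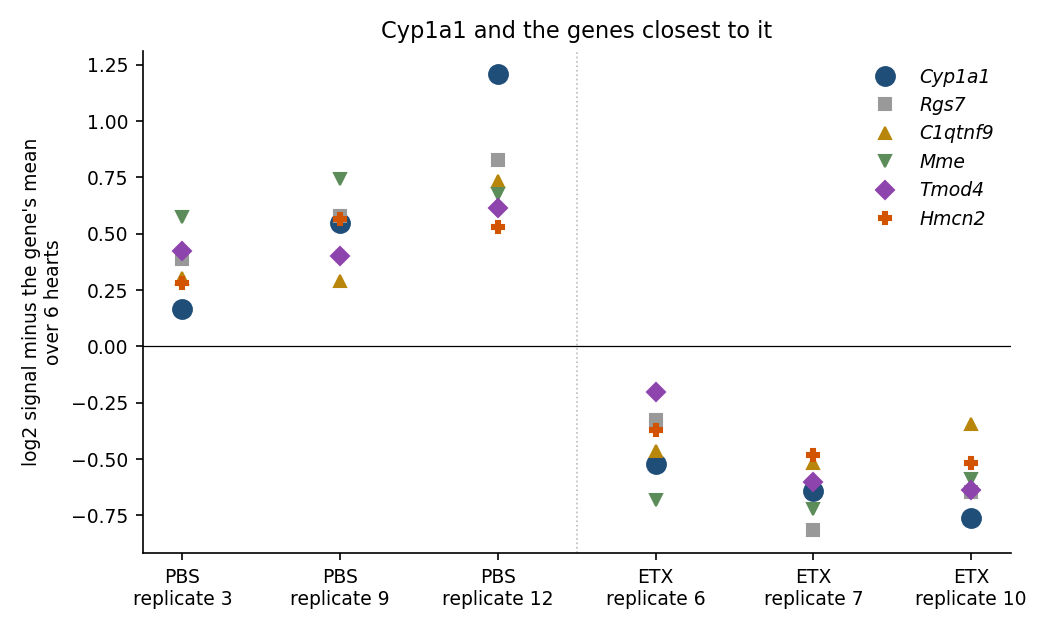
Log2 signal of Cyp1a1 and the 5 genes closest to it in each heart, after subtracting each gene's mean over the 6 hearts; PBS hearts are left of the dotted line and ETX hearts right. All points are above 0 in PBS and below 0 in ETX, as the choice of genes close to Cyp1a1 favours. Rgs7 follows Cyp1a1 most closely (root mean square difference 0.216).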

How the data were processed

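Total RNA of 6 mouse hearts was measured on arrays, 1 per heart. The authors deposited log2 signals made with Affymetrix Expression Console and RMA, per the submitters' processing notes, which give no version; RMA corrects background, normalizes quantiles and summarises probes, and compresses differences of dim transcripts. No detection call was used. Of 35556 transcript clusters 21789 have 1 gene symbol and 1621 several in the platform annotation, and 12146 are not named there; 21698 gene identifiers matched RefSeq. Genes with a mean under 3.45, the lower quartile, were left out, and 14953 were tested. The groups were tested against each other in limma 3.58.1 (two-sided, lmFit and eBayes; R 4.3.3), Benjamini-Hochberg over all genes tested, threshold 0.05. P-values rest on the spread among 3 hearts a group, which eBayes draws towards a value estimated over all genes tested. For genes with little spread, such as Ahr (within-group SD 0.033, SE of the difference 0.062), the SE therefore reflects more than these hearts. On data simulated for this comparison over 14953 genes, 94% of 100 genes changed 1.5-fold and 100% of 100 changed 2-fold were recovered, with 14 other genes called. The simulated noise was independent and normal, without the lung, liver, atrial or sex differences seen between these hearts. In the data the atrial marker Nppa differed by 2.04 and was not called (limma adjusted p = 0.14). A gene that was not called is therefore not shown to be unchanged. The genes, lists and rules (lists: battery enzymes, other targets, chaperones, PAS relatives, coregulators, ligand enzymes, ADP-ribosyl transferases, and markers of lung, liver, atrium, endothelium, macrophages, fibroblasts, pericytes and smooth muscle, cardiomyocytes and erythroid cells) were chosen with earlier results of these data known. Named from the lists were called members, the 2 with the smallest p and a set of fixed genes; Il1b, Slc7a5, Ido1 and Kmo were added after their values were seen. Lists are described by counts and medians. Alternatives were other filters, eBayes options, array weights, other scalings, other uses of clusters, marker scores or sex as covariates, and hearts left out; the liver-marker covariate was chosen after seeing the data. Figures used matplotlib 3.10.9 in Python 3.11.15.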

Additional observations from a re-analysis of the deposited data

How the results depend on the processing

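The difference of Cyp1a1 was -1.85 to -0.997 in the 20 alternative limma fits run, and 11 of them passed. Most of these fits could not have turned its sign, as described above. Cyp1a1 did not pass with all transcript clusters tested (limma adjusted p = 0.0646), with robust eBayes (0.0524), or in the exact permutation test (p = 0.1), with a difference of -1.28 in each. With the atrial score (-1.18), the endothelial score (-1.24) or sex from Xist (-1.16) in the fit it did not pass either, and without 1 heart its difference ran from -1.52 to -0.997. Filtering at the median of gene means left Cyp1a1 out, so it has no value there. Ahr, Arnt, Cyp1b1 and Tiparp passed in no fit, and small differences turned sign. Ahr was 0.0043 with further quantile normalization, 0.017 with the lung score in the fit and 0.015 without PBS replicates 3 and 9. Cyp1b1 was -0.028 with arrays centred on their median, -0.00068 with further quantile normalization, -0.0036 with the liver score in the fit, -0.011 without PBS replicates 3 and 9, and -0.032 to 0.029 without 1 heart. With the endothelial score in the fit Arnt was 0.058, Tiparp 0.12, Arnt2 -0.0042, Clock 0.053, Cyp1a2 -0.64, Parp14 0.20 and Nfe2l2 -0.12, while Ahrr was 0.39. Cyp1a2 was -0.060 with the liver score in the fit and -0.030 without PBS replicates 3 and 9, and Hif1a ran from -0.0097 to 0.11 without 1 heart. The median of the coregulator list was -0.11 with further quantile normalization; that of the battery enzymes ran from -0.12 to 0.095 without 1 heart, that of the PAS relatives from -0.016 to 0.039, that of the other targets from -0.29 to -0.15 and that of the ligand enzymes from 0.0047 to 0.042. The number of genes called, 533, became 134 with the atrial, 80 with the lung, 108 with the liver and 0 with the endothelial score in the fit (1089 at an unadjusted p under 0.05), and 120 with sex. It was 870 with an eBayes trend, 909 with the filter at the median, 19 without PBS replicates 3 and 9, and 94 to 241 without 1 heart. These fits have fewer hearts or degrees of freedom where a heart is left out or a covariate added; the cause of the other changes was not tested. No paired analysis was possible because the groups share no replicate number. The arrays give no detection call, so Ahrr and the ETX level of Cyp1a1, near 3.4, may be at background.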
